A study of Homo sapiens with 4 samples.

Results

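The tetraspanins are a family of small membrane proteins, taken here as every protein-coding gene row whose symbol was TSPAN followed by a number, together with CD9, CD37, CD53, CD63, CD81, CD82 and CD151. The rule found 29 genes among the 57820 gene rows of the count files, and 25 of them had enough counts to be tested. RNA was sequenced from TD cells (2 libraries) and from parental A549 cells (2 libraries), to ask how gene expression differs between a mesenchymal-like state and its epithelial parent. A549 is an established line of human non-small cell lung cancer cells. TD cells are A549 cells that received TGF-β, a growth factor known to induce epithelial-mesenchymal transition, at 2 ng/ml every 3 days, and their morphology is given as mesenchymal-like, whereas that of A549 cells is given as epithelial. Both lines were grown in serum-supplemented medium with gentamycin, A549 cells without added TGF-β, and each group is represented by 1 line.

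Tetraspanins cross the membrane as a bundle of helices joined by a small and a large extracellular loop, and they have no enzymatic activity of their own. They work by holding other proteins beside one another: integrins, immunoglobulin-family partners, membrane proteases and signalling enzymes are gathered into tetraspanin-enriched domains. CD9, CD63 and CD81 are the usual surface markers of extracellular vesicles, CD151 binds the laminin-binding integrins, CD82 is known as a suppressor of metastasis, and the TspanC8 subgroup escorts the protease ADAM10 to the cell surface.

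Gene counts came to 28237849 and 44133836 in TD replicates 1 and 2, and to 26729278 and 29381872 in A549 replicates 1 and 2. Levels are CPM, counts per library scaled with edgeR's TMM factors, and averages are mean ± SD of 2 libraries throughout. A count of 0 in a library allows a level of up to 0.068 to 0.112 CPM, which covers counting error only. All 5 epithelial markers checked were lower in TD, with a summed level of 1727 and 2068 CPM in TD against 15300 and 16100 CPM in A549, and all 3 mesenchymal markers were higher, with 2298 and 2608 CPM in TD against 431 and 435 CPM in A549. The call of 1 epithelial marker, KRT19, with 0 and 3 counts in TD against 33 and 30 counts in A549, was lost without A549 replicate 1 (adjusted p = 0.117, edgeR) or 2 (adjusted p = 0.102, edgeR). CDH1, the epithelial cadherin, averaged 2.95 ± 0.134 CPM in TD and 189.7 ± 1.86 CPM in A549, and its mesenchymal counterpart CDH2 averaged 187 ± 13.3 CPM in TD and 0.485 ± 0.0764 CPM in A549 (SD, n = 2 each). The summed level of 3 endothelial markers was 0.516 and 0.221 CPM in TD against 0.144 and 0 CPM in A549, that of 5 fibroblast markers was 0.482 and 0.565 CPM in TD against 1.65 and 1.65 CPM in A549, and that of 5 alveolar markers was 1.51 and 0.884 CPM in TD against 2.51 and 2.22 CPM in A549. These are bulk RNA measurements, in which fewer cells carrying an RNA and less of it per cell cannot be told apart. Whether replicate libraries stem from separate cultures is not stated in the labels, so p-values reflect the spread among libraries alone, and that spread may be technical.

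Of the 25 tested tetraspanins, 12 passed edgeR's quasi-likelihood test at an adjusted p below 0.05, 7 of them higher and 5 lower in TD. That is 48% of the tested members, beside a background of 43% over all 17785 tested genes, of which 21.6% were higher and 21.4% lower. Among tested protein-coding genes, the kind all members are, the called share was 50.6%. At this threshold, without regard to the size of the change, the family was therefore called about as often as other genes. Without A549 replicate 1 or 2 the count was 5 higher and 4 lower either way, without TD replicate 1 it was 10 and 6, and without TD replicate 2 it was 8 and 8, while over all genes 2114 to 5329 were called higher and 2236 to 6140 lower. Of the 25 tested members, 10 were called with a fitted change of at least 2-fold, 6 higher and 4 lower. The background was 21.8% in either direction, 9.49% higher and 12.3% lower. Among tested protein-coding genes, 3099 of 13208 were called at that size. The share was thus larger among the members than in the background, on a small number of members. The median log2 change of the tested members was 0.12 and that of all tested genes -0.04, while the median size of the change, without its sign, was 0.44 for the members and 0.50 for all tested genes. The members thus spread over a wide range around an almost central median, with TSPAN2 at one end and TSPAN8 at the other. In 21 of the 25 members the TD and A549 libraries did not overlap, beside 74% of all tested genes and 79.8% of tested protein-coding genes. The summed counts of all 29 members made up 0.209% and 0.221% of gene counts in TD, against 0.206% and 0.189% in A549.

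**Figure D1:**
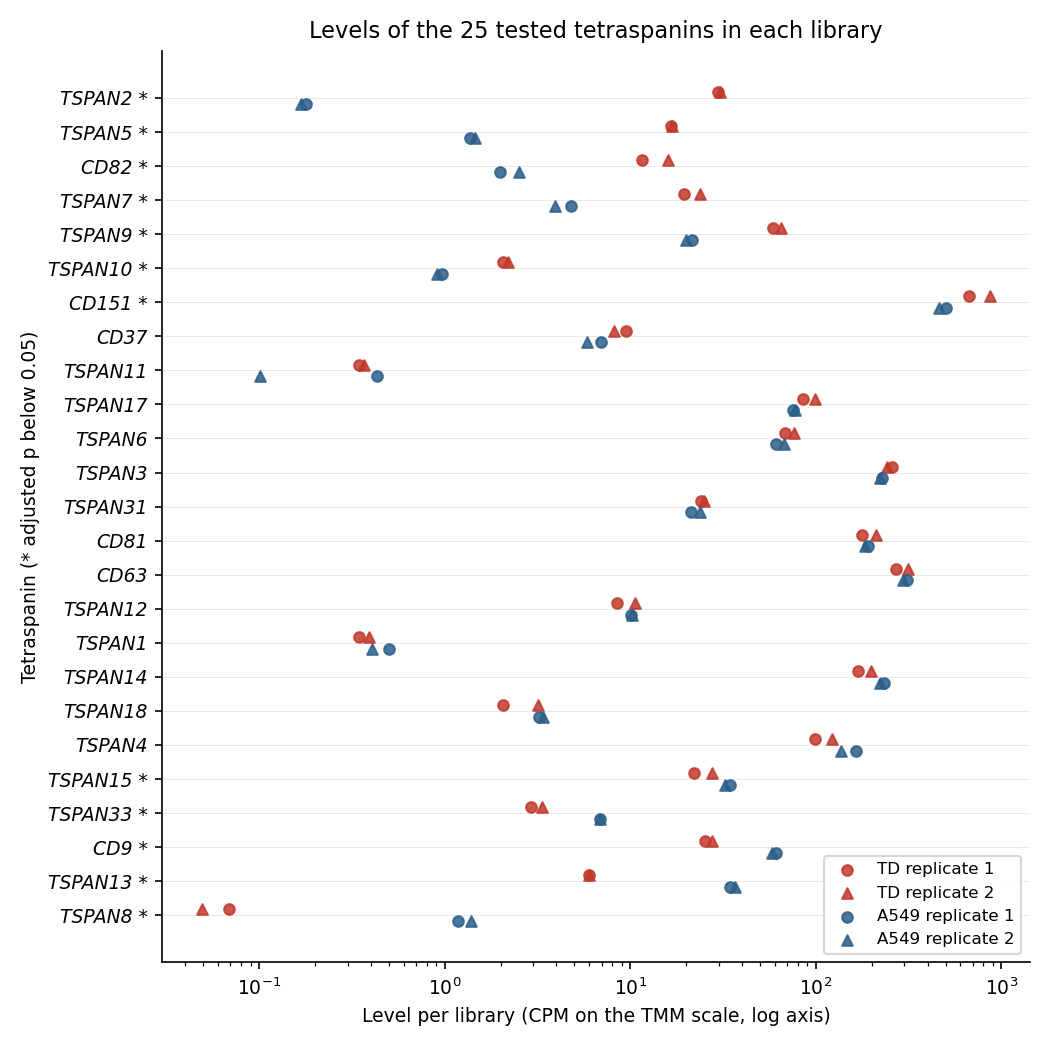
Level of each of the 25 tested tetraspanins in every library, in CPM on a log axis, with TD libraries drawn above the A549 libraries of the same gene and an asterisk at members with an adjusted p below 0.05. TSPAN2 and TSPAN8 show the widest gaps, in opposite directions, while the groups of CD63, CD81, TSPAN11 and TSPAN12 overlap.

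The promoters of the members that changed most are printed here because they show what the start regions of strongly raised and strongly lowered tetraspanins look like side by side. RefSeq promoter windows on GRCh38.p14 were found for 21 of the 29 members, 41 windows in all. Each covers the 250 bases before a listed start, 5′ to 3′ on the gene's strand. None was found for CD151, TSPAN7 and TSPAN9, which were higher in TD, or for CD37, CD81, TSPAN3, TSPAN18 and TSPAN32. Capitals mark a match to any of 4 letter patterns searched on both strands: CAGGTG, the E2-box letters read by SNAIL and ZEB factors, TGANTCA of AP-1, GTCTNGAC of SMAD proteins and GGAATG of TEAD factors. The patterns were chosen after the expression values had been seen.
TSPAN2: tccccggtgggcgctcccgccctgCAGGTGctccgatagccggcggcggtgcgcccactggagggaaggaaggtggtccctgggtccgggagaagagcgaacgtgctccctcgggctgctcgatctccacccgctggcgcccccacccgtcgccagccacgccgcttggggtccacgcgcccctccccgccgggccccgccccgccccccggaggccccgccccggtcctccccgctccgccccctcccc
TSPAN5: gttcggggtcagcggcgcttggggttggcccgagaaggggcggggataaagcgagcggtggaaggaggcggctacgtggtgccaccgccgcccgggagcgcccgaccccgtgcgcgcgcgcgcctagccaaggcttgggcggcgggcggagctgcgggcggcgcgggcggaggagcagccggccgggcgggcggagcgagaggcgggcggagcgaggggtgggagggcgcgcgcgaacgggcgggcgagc
CD82: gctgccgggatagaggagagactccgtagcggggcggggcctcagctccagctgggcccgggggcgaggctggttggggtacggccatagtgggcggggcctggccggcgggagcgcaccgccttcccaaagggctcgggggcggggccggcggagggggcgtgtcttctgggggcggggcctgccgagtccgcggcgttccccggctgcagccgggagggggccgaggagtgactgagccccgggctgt
TSPAN13: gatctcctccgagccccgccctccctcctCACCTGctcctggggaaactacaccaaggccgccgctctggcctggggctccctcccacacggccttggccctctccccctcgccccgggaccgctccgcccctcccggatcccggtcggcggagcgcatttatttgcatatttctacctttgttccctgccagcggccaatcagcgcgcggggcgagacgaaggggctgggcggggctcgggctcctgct
TSPAN8: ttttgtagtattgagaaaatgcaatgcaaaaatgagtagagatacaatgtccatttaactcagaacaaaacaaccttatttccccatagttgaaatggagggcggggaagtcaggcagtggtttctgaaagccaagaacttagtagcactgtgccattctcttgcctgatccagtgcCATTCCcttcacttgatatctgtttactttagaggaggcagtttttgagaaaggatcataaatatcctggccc
The windows lie at chr1:115089504-115089753 on the minus strand (TSPAN2), chr4:98658612-98658861 on the minus strand (TSPAN5), chr11:44565413-44565662 on the plus strand (CD82), chr7:16753505-16753754 on the plus strand (TSPAN13) and chr12:71158000-71158249 on the minus strand (TSPAN8, the first of 2 listed starts).

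The printed windows of 3 raised genes were rich in G and C, at 79.2% for TSPAN2, 80.0% for TSPAN5 and 77.2% for CD82. They held 30, 43 and 26 CpG pairs. The median over all 35116 windows was 58.0% and 11 CpG pairs. Among the printed lowered genes the windows differed from each other: TSPAN13 had 70.0% G and C with 22 CpG pairs, and TSPAN8 had 40.8% with 1 CpG pair. TSPAN10, also raised, had 58.0% with 4 CpG pairs. Windows of CD9, which fell, ran from 44.8% to 76.8%, and those of TSPAN14, which was not called, from 50.4% to 88.0%. A high share of G and C was thus not particular to raised members. TSPAN2 carried CAGGTG and TSPAN13 its reverse complement CACCTG, so a gene that rose and a gene that fell both held the E2-box letters. The printed window of TSPAN8 carried CATTCC, the reverse complement of the TEAD letters, and its other listed window held none of the 4 patterns. The windows of TSPAN5 and CD82 also held none. Over all member windows, 11 of 41 (26.8%) held the E2-box letters, against 17.5% of all 35116 windows, and these 11 belonged to 9 members. The AP-1 letters were in 2 of 41 member windows and 6.57% of all windows, the TEAD letters in 6 of 41 and 11.9%, and the SMAD letters in 0 of 41 and 1.26%. Windows of 1 gene can overlap, and a match describes letters, not binding.

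TSPAN2, best known from oligodendrocytes, showed the widest rise of the family. Its level was 29.6 and 30.6 CPM in TD replicates 1 and 2, against 0.179 and 0.168 CPM in A549 replicates 1 and 2. These rest on 860 and 1245 counts in TD and 5 and 5 counts in A549, so the gene was close to the detection limit in the parental cells and clearly present in TD. The log2 change was 7.40 (SE 0.14, 95% interval 7.05 to 7.76, adjusted p = 3.08e-05, edgeR quasi-likelihood test), and TSPAN2 ranked 89 among all tested genes ordered by the size of the rise. Because the A549 level rests on 10 counts, the counting interval of the ratio runs widely, between 94.3-fold and 363-fold. The fitted SE and 95% interval are narrower than that, so they understate how uncertain the size of the change is.

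TSPAN5 was the second widest rise. It belongs to the TspanC8 subgroup and carries ADAM10 out of the endoplasmic reticulum toward sites of Notch cleavage. Its level was 16.6 and 16.8 CPM in TD, against 1.36 and 1.45 CPM in A549. TD libraries were alike and both lay far above the parental libraries: the log2 change was 3.57 (SE 0.13, adjusted p = 7.66e-05, edgeR), or 11.8-fold.

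CD82 reached 11.6 and 16.0 CPM in TD, against 1.97 and 2.53 CPM in A549. CD82, also called KAI1, restrains migration in many tumour models. Its log2 change was 2.61 (SE 0.23, 95% interval 2.01 to 3.22, adjusted p = 0.00119, edgeR). The TD libraries differed from each other by more than those of TSPAN2 or TSPAN5, yet the lower of them was still well above both A549 libraries.

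TSPAN7, a tetraspanin of neurons whose loss causes X-linked intellectual disability, had 19.5 and 23.7 CPM in TD, against 4.77 and 3.91 CPM in A549. That is a log2 change of 2.32 (SE 0.16, adjusted p = 0.000567, edgeR). TSPAN9, a tetraspanin of platelets, had 58.5 and 64.5 CPM in TD, against 21.5 and 20.1 CPM in A549. The groups were separated by a log2 change of 1.56 (SE 0.09, adjusted p = 0.00031, edgeR). In both genes the 2 TD libraries lay above the 2 A549 libraries with a wide margin.

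TSPAN10, a TspanC8 member of pigment cells, was low throughout, with 2.07 and 2.19 CPM in TD against 0.969 and 0.909 CPM in A549. Its log2 change of 1.18 (SE 0.24, adjusted p = 0.0167, edgeR) rested on 60 and 89 counts in TD and 27 and 27 counts in A549. With A549 replicate 1 or 2 left out the adjusted p became 0.0976 or 0.105. In the annotation used for names its exons share 36 bases, or 0.8% of their length, with those of NPLOC4, which was itself higher in TD at 199 and 229 CPM against 172 and 167 CPM in A549.

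CD151, the partner of integrins α3β1, α6β1 and α6β4, led the family in level and rose by less than 2-fold. It had 669.7 and 871 CPM in TD, against 502 and 458 CPM in A549. Both TD libraries were above both A549 libraries, but the TD libraries lay far apart, at a mean of 770.2 ± 142 CPM in TD and 480.0 ± 31.5 CPM in A549 (SD, n = 2 each). The log2 change was 0.68 (SE 0.15, 95% interval 0.29 to 1.08, adjusted p = 0.0208, edgeR). Without A549 replicate 1 or 2 the adjusted p was 0.0904 or 0.120.

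**Figure D2:**
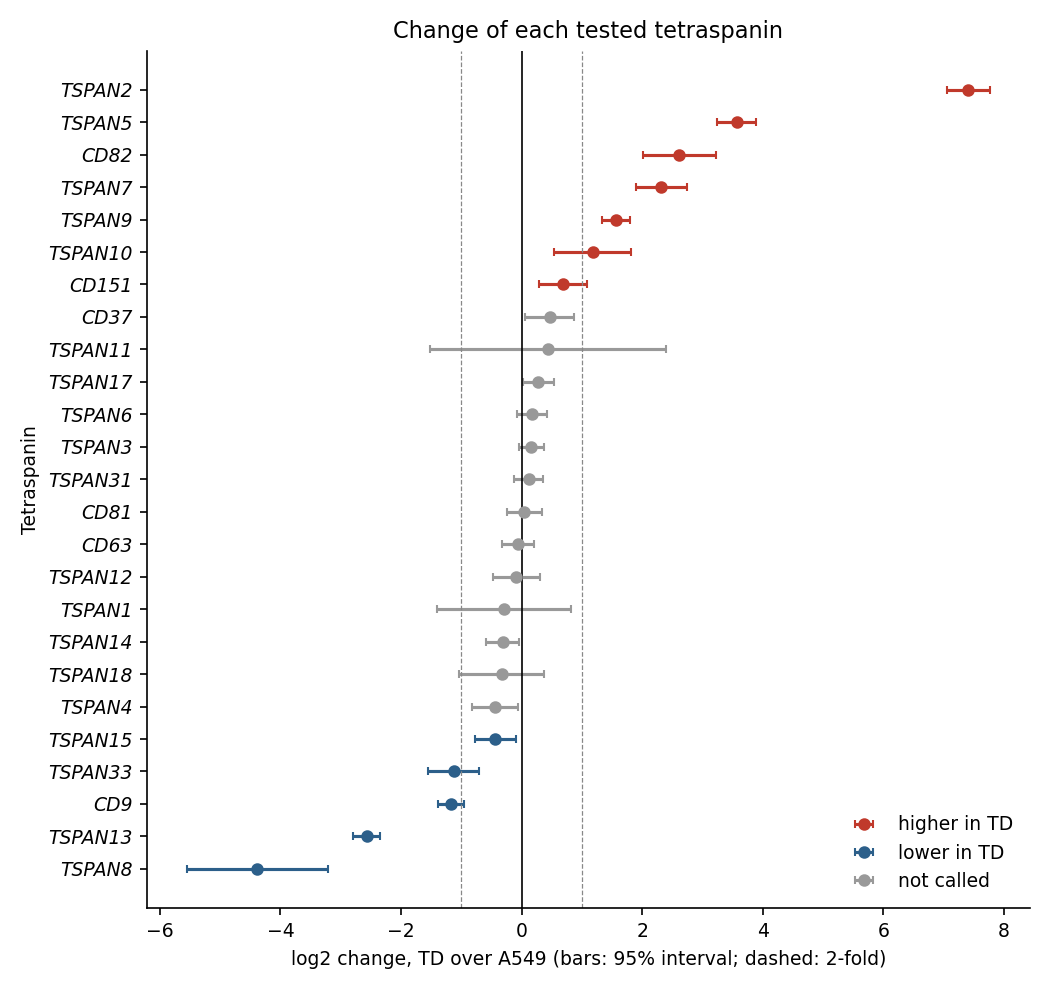
Log2 change of each tested tetraspanin, TD over A549, with points at the fitted value, bars for the 95% interval and dashed lines at a 2-fold change. The changes run between 7.40 for TSPAN2 and -4.38 for TSPAN8, and the interval of TSPAN11 is the widest among the uncalled members. The bars of TSPAN2 and TSPAN8, which had few counts in 1 group, are narrower than their counting intervals.

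Among the members that were lower in TD, TSPAN8 showed the widest fall. It is a tetraspanin of gut and other epithelia that forms complexes with EPCAM and claudin-7 in carcinoma cells. It had 0.0688 and 0.0491 CPM in TD, or 2 counts in each library, against 1.18 and 1.38 CPM in A549, or 33 and 41 counts. The gene was thus at the detection limit in TD and low even in A549. The fitted log2 change was -4.38 (SE 0.45, adjusted p = 0.00184, edgeR), and the counting interval of the ratio, A549 over TD, ran between 8.40 and 84.4.

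TSPAN13 had 6.02 and 5.97 CPM in TD, against 34.6 and 36.7 CPM in A549. The libraries of each group were nearly identical, and the gene fell by 2.57 on the log2 scale (SE 0.09, adjusted p = 7.01e-05, edgeR), or 5.94-fold. CD9, which acts in sperm-egg fusion, cell adhesion and vesicle formation, had 25.3 and 27.7 CPM in TD, against 61.3 and 58.2 CPM in A549. Its log2 change was -1.17 (SE 0.09, 95% interval -1.39 to -0.95, adjusted p = 0.00061, edgeR). Both TD libraries were below the parental level, by a wide margin in each case.

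TSPAN33, a TspanC8 member known from erythroid cells and B cells, had 2.93 and 3.34 CPM in TD, against 6.85 and 6.83 CPM in A549. It fell by 1.12 on the log2 scale (SE 0.16, adjusted p = 0.00544, edgeR). TSPAN15, a TspanC8 member that directs ADAM10 to N-cadherin, had 22.0 and 27.5 CPM in TD, against 34.5 and 32.6 CPM in A549. The call for TSPAN15 was the closest to the threshold, with a log2 change of -0.44 (SE 0.13, adjusted p = 0.0484, edgeR), and it was lost without A549 replicate 1 (adjusted p = 0.140) or 2 (adjusted p = 0.107).

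TSPAN4, a tetraspanin of migrasomes, the vesicles left on the trailing fibres of moving cells, stood just on the other side of the threshold with the same size of change. It had 99.0 and 122 CPM in TD, against 163 and 136 CPM in A549, a log2 difference of -0.44 (95% interval -0.82 to -0.06, adjusted p = 0.0683, edgeR). TSPAN14, with 169 and 198 CPM in TD against 233 and 221 CPM in A549, was also close (log2 difference -0.31, adjusted p = 0.0688, edgeR). So were TSPAN17, with 85.5 and 99.4 CPM in TD against 74.9 and 77.5 CPM in A549 (log2 difference 0.28, adjusted p = 0.0783, edgeR), and CD37 (log2 difference 0.46, adjusted p = 0.0729, edgeR). The groups did not overlap in any of these 4, which also holds for 74% of all tested genes and 79.8% of tested protein-coding genes. All 4 passed in DESeq2's test, with adjusted p between 0.00358 for TSPAN4 and 0.0486 for CD37, as did TSPAN3 at 0.0443.

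CD63 and CD81 stayed close to the parental level. CD63, the tetraspanin of late endosomes and lysosomes, had 269 and 312 CPM in TD, against 308 and 295 CPM in A549, a log2 difference of -0.05 (95% interval -0.32 to 0.21, adjusted p = 0.704, edgeR). CD81, an entry factor of hepatitis C virus, had 176 and 211 CPM in TD, against 191 and 184 CPM in A549, with a log2 difference of 0.05 (95% interval -0.24 to 0.33, adjusted p = 0.765, edgeR). The groups overlapped in both genes, and the intervals leave out a change of 2-fold in either direction. Of the 3 vesicle marker tetraspanins, CD9 alone passed the test. Per exon length, these 3 genes summed to 132 and 154 CPM per kb in TD, against 158 and 151 CPM per kb in A549.

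The remaining uncalled members covered a wide range of levels. TSPAN3, which is widely expressed, had 258 and 241 CPM in TD against 226 and 221 CPM in A549, and TSPAN6 had 68.4 and 76.2 CPM in TD against 61.0 and 67.1 CPM in A549. TSPAN12, which strengthens norrin signalling through the receptor FZD4, had 8.47 and 10.6 CPM in TD against 10.1 and 10.2 CPM in A549, and its groups overlapped (log2 difference -0.09, 95% interval -0.47 to 0.30). TSPAN31 had 24.0 and 24.8 CPM in TD against 21.2 and 23.9 CPM in A549. These 4 genes had log2 differences between -0.09 and 0.17. TSPAN18, a regulator of calcium entry in endothelial cells, had 2.07 and 3.19 CPM in TD against 3.23 and 3.40 CPM in A549, while TSPAN1 and TSPAN11 were below 1 CPM in every library. At such levels the intervals are wide, and that of TSPAN11 spanned -1.53 to 2.39 on the log2 scale.

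The leukocyte tetraspanins were low or near the limit of detection in both groups. CD37 had 9.43 and 8.16 CPM in TD against 6.93 and 5.82 CPM in A549, CD53 had 3 and 6 counts in TD against 5 and 3 counts in A549, and TSPAN32 had 0 and 0 counts in TD against 0 and 1 count in A549. The leukocyte markers checked summed to 4.41 and 4.45 CPM in TD and to 4.13 and 3.67 CPM in A549. CD3E was at 0 in all 4 libraries, LAPTM5 was higher, with 37 and 67 counts in TD against 3 and 1 counts in A549, CD14 was lower, with 10 and 7 counts in TD against 23 and 23 counts in A549, and the part of these markers in the CD37 values was not tested. The CD14 call, at an adjusted p = 0.0490 by edgeR, was lost without A549 replicate 1 (adjusted p = 0.248) or 2 (adjusted p = 0.227). CD37 also shares 7.7% of its exon length with TEAD2. The other untested members were TSPAN16, with 0 and 0 counts in TD against 5 and 1 counts in A549, and TSPAN19, with 8 and 8 counts in TD against 6 and 6 counts in A549.

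To compare levels between genes, counts were scaled to exon length. The lengths came from GENCODE 29, whereas the annotation behind the counts is not given, so the exons counted may differ in length. In both groups CD151 was the most abundant tetraspanin, with 170.1 and 221 CPM per kb in TD against 128 and 116 CPM per kb in A549, and CD63 followed with 102 and 118 CPM per kb in TD against 117 and 112 CPM per kb in A549. CD151 took 38.5% and 41.8% of the summed tetraspanin level in TD, against 29.9% and 28.7% in A549. CD151 and CD63 lay closer together in both A549 libraries than in either TD library. The same 5 genes, CD151, CD63, TSPAN3, CD81 and TSPAN4, led in every library and together held 77.8% and 79.0% of the sum in TD, against 76.0% and 74.6% in A549. Per kb of the longest coding transcript the same 5 led in TD, but CD9 took the place of TSPAN3 in both A549 libraries. The sum itself was 441 and 528.5 CPM per kb in TD, against 427 and 406 CPM per kb in A549.

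Below the leading genes the order differed between the groups. TSPAN2 held place 11 in TD and place 27 in A549, TSPAN7 place 12 in TD and 17 in A549, and TSPAN9 place 10 in TD and 14 in A549. In the other direction, TSPAN13 held place 17 in TD and place 6 in A549, and CD9 place 13 in TD and 8 in A549. TSPAN2 had 8.68 and 8.97 CPM per kb in TD, against 0.0526 and 0.0494 CPM per kb in A549, and CD9 had 6.07 and 6.65 CPM per kb in TD, against 14.7 and 14.0 CPM per kb in A549. Which of them was higher in TD depended on the gene length used: per kb of the longest coding transcript, TSPAN2 had 9.32 and 9.63 CPM in TD and CD9 had 16.2 and 17.7 CPM in TD. With that length in place of all exons, CD9 held place 8 in TD and 5 in A549, and 9 of the 10 most abundant members were shared with the order by all exons in each group.

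**Figure D3:**
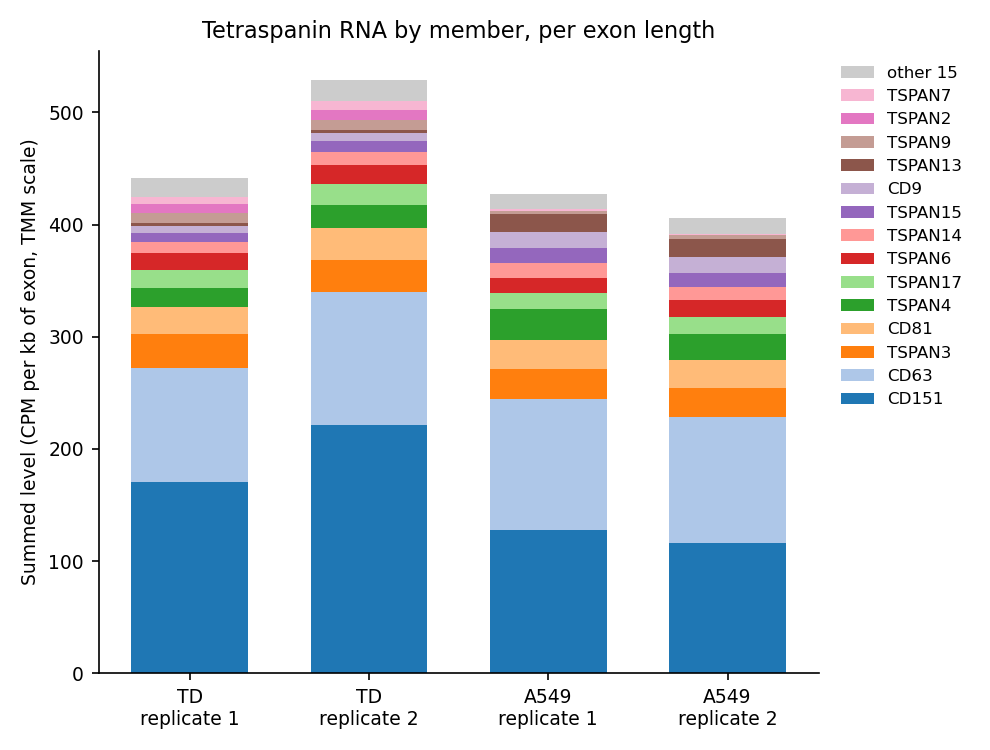
Summed tetraspanin level in each library in CPM per kb of exon, stacked by member, with the other 15 members as 1 grey block. CD151 and CD63 make up most of every bar, the TSPAN13 and CD9 blocks are thinner in TD than in A549, and the TSPAN2, TSPAN7 and TSPAN9 blocks are thicker in TD.

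The TspanC8 subgroup shifted in makeup more than in total. Of its 6 members, TSPAN5 and TSPAN10 were higher, TSPAN33 and TSPAN15 were lower, and TSPAN14 and TSPAN17 did not pass the test. Their summed level was 37.9 and 44.4 CPM per kb in TD and 43.3 and 42.4 CPM per kb in A549, so the total overlapped between the groups, and it also did per kb of the longest coding transcript. TSPAN5 made up 5.89% and 5.10% of it in TD, against 0.424% and 0.459% in A549. TSPAN33 made up 2.81% and 2.73% in TD, against 5.75% and 5.86% in A549. The 3 abundant members kept most of the total: TSPAN17 held 43.3% and 42.9% in TD against 33.1% and 35.0% in A549, TSPAN14 24.9% and 24.9% in TD against 30.1% and 29.2% in A549, and TSPAN15 21.9% and 23.4% in TD against 30.1% and 29.0% in A549. The larger part of the total therefore came from members whose levels differed by less than 2-fold.

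**Figure D4:**
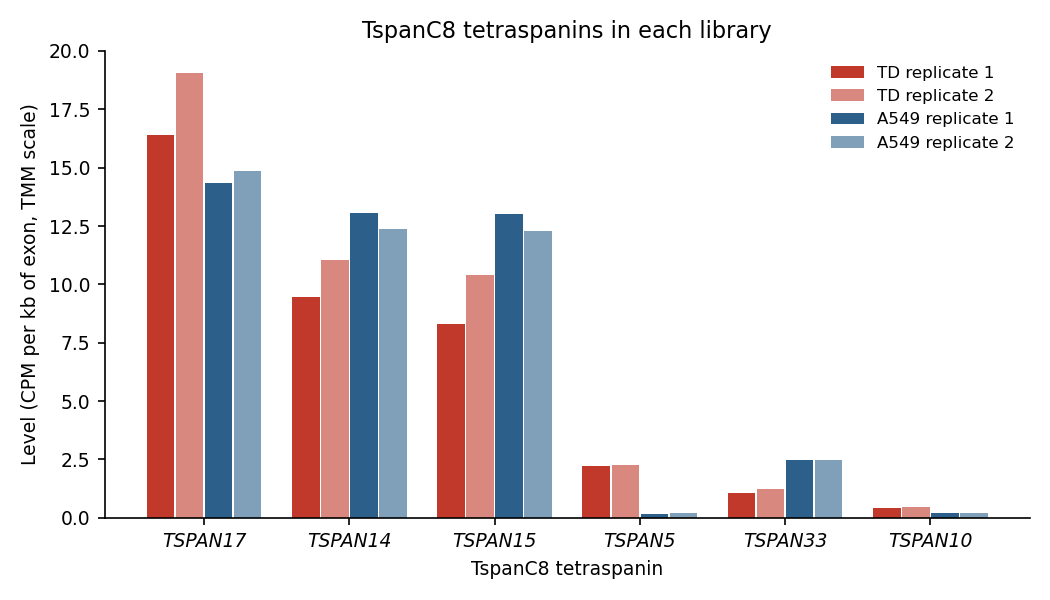
Level of the 6 TspanC8 tetraspanins in each library, in CPM per kb of exon, with bars starting at 0 and TD left of A549. TSPAN5 is at 2.23 and 2.26 CPM per kb in TD and near 0 in A549, while TSPAN17, TSPAN14 and TSPAN15 are the tallest in all 4 libraries.

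ADAM10 itself, the protease that these members escort, averaged 243 ± 6.56 CPM in TD and 195 ± 5.25 CPM in A549 (SD, n = 2 each), a log2 change of 0.32 (adjusted p = 0.0252, edgeR), and without A549 replicate 1 or 2 the adjusted p was 0.115 or 0.0726. ADAM17, the related sheddase that works with the iRhom proteins, was lower, at 49.8 ± 0.506 CPM in TD and 79.4 ± 3.64 CPM in A549. Among 24 tested genes of a list of ADAM10, related sheddases and their substrates, 12 were higher and 9 lower in TD. The called share was 87.5%, beside the 43% of all tested genes and the 50.6% of tested protein-coding genes. The list was chosen with earlier results of these data known, so this share is not independent of them. The substrates changed in both directions: EFNB2, the ligand ephrin-B2, averaged 18.8 ± 0.440 CPM in TD and 0.764 ± 0.0147 CPM in A549, and NOTCH2 198 ± 9.98 CPM in TD and 54.2 ± 0.383 CPM in A549. NOTCH3, by contrast, averaged 4.73 ± 0.611 CPM in TD and 211 ± 20.6 CPM in A549, and the chemokine CXCL16 averaged 1.67 ± 0.0289 CPM in TD and 18.0 ± 1.28 CPM in A549. CX3CL1 had 2 counts over both TD libraries against 148 counts over both A549 libraries.

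Integrins are the best-known partners of tetraspanins. The chains listed here were chosen with earlier results of these data known, so their called share is not independent of those results. All 11 tested chains passed the test, 8 higher and 3 lower, beside 43% of all tested genes and 50.6% of tested protein-coding genes. Their median log2 change was 1.32, beside -0.04 over all tested genes. ITGA3, whose product binds CD151 most tightly, averaged 681 ± 88.0 CPM in TD and 272 ± 13.4 CPM in A549, a log2 change of 1.32 (SE 0.12, adjusted p = 0.00128, edgeR). ITGA6 averaged 127 ± 4.29 CPM in TD and 93.4 ± 6.20 CPM in A549, with an adjusted p = 0.0124 that became 0.0634 without A549 replicate 1 (edgeR). ITGB1, the shared β1 chain, averaged 2618 ± 33.5 CPM in TD and 1338 ± 68.7 CPM in A549. ITGB4, the β4 partner of α6, was lower, at 103 ± 17.7 CPM in TD and 141 ± 2.55 CPM in A549, with an adjusted p = 0.0465 that became 0.131 or 0.120 without A549 replicate 1 or 2 (edgeR). The widest rise was that of ITGB3, with 29.9 ± 3.84 CPM in TD and 0.210 ± 0.0586 CPM in A549, followed by ITGAV with 951 ± 1.71 CPM in TD and 158 ± 6.80 CPM in A549. ITGA5 averaged 281 ± 24.4 CPM in TD and 51.1 ± 3.81 CPM in A549, while ITGB5 fell to 48.5 ± 4.94 CPM in TD, against 246 ± 2.35 CPM in A549. ITGA7 was the other lower chain, with a log2 change of -0.98 (adjusted p = 0.00567, edgeR).

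Direct partners other than integrins were likewise listed with earlier results known, and ADAM10, ADAM17, CD44, HBEGF and MET are on the ADAM10 list too. Of 17 tested direct partners other than integrins, 8 were higher and 5 lower. That is a called share of 76.5%, beside 43% of all tested genes and 50.6% of tested protein-coding genes. Without A549 replicate 1 or 2, 4 or 5 were called higher. EPCAM, the epithelial adhesion molecule that binds CD9 and TSPAN8, was close to the detection limit in TD, at 0.150 ± 0.0659 CPM in TD and 150.3 ± 3.83 CPM in A549 (log2 change -9.87, adjusted p = 3.08e-05, edgeR). CLDN7, the other partner in TSPAN8 complexes, had 0 and 5 counts in TD against 22 and 29 counts in A549 (adjusted p = 0.0332, edgeR), and the call was lost without A549 replicate 1 (adjusted p = 0.180) or 2 (adjusted p = 0.214). IGSF8, an immunoglobulin-family partner of CD9 and CD81, averaged 7.98 ± 0.728 CPM in TD and 18.6 ± 0.814 CPM in A549. Its relative PTGFRN did not pass the test, at 42.5 ± 2.42 CPM in TD and 49.9 ± 1.52 CPM in A549. ICAM1, which gathers in CD9 and CD151 domains of endothelial cells, averaged 0.467 ± 0.173 CPM in TD and 4.17 ± 0.0407 CPM in A549. Higher partners included HBEGF, the growth factor that CD9 presents as a precursor, at 11.6 ± 0.406 CPM in TD and 1.29 ± 0.304 CPM in A549, and CD44, at 618 ± 39.5 CPM in TD and 213 ± 2.67 CPM in A549. TIMP1, the protease inhibitor that binds CD63, averaged 89.2 ± 14.1 CPM in TD and 44.3 ± 2.27 CPM in A549.

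Genes of vesicle formation moved in both directions. Of 21 tested, 7 were higher and 4 lower, with a median log2 change of 0.04. The called share, 52.4%, lay near the 43% of all tested genes and the 50.6% of tested protein-coding genes, and without A549 replicate 1 or 2 the higher genes numbered 3. RAB27B, which docks vesicles for release, averaged 27.5 ± 3.48 CPM in TD and 87.8 ± 11.7 CPM in A549, and the flotillins FLOT1 and FLOT2 were lower as well, with log2 changes of -1.34 and -1.20 (adjusted p = 0.00565 and 0.00142, edgeR). HGS, the ESCRT-0 subunit, averaged 193 ± 17.4 CPM in TD and 81.9 ± 10.4 CPM in A549, and the syndecan SDC1 averaged 688 ± 56.3 CPM in TD and 351.5 ± 9.86 CPM in A549. CD274, the checkpoint ligand PD-L1 that is carried on vesicles, was higher with a log2 change of 1.62 (adjusted p = 0.00201, edgeR). SDCBP, the adaptor syntenin that binds CD63, did not pass the test, at a log2 difference of -0.03.

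TSPAN12 did not pass the test, whereas 5 of 7 tested genes of the norrin receptor list did, 2 higher and 3 lower. That is 71.4%, beside 43% of all tested genes and 50.6% of tested protein-coding genes. This list, too, was chosen with earlier results of these data known. FZD4, the receptor that TSPAN12 binds, averaged 2.47 ± 0.329 CPM in TD and 4.12 ± 0.0629 CPM in A549 (adjusted p = 0.0367, edgeR), and the call was lost without A549 replicate 1 (adjusted p = 0.130) or 2 (adjusted p = 0.122). Its co-receptor LRP5 averaged 50.9 ± 7.47 CPM in TD and 168 ± 12.5 CPM in A549. TCF7, a transcription factor of the pathway, averaged 17.1 ± 2.00 CPM in TD and 4.34 ± 0.296 CPM in A549, and the ligand gene NDP was not tested, at 1 count over both TD libraries. Among 11 enzymes that add palmitate to proteins or remove it, 4 were higher and 2 lower, none of them by 2-fold. Whether each of them acts on tetraspanins was not tested. The called share, 54.5%, was also near the 43% of all tested genes and the 50.6% of tested protein-coding genes. The widest rise was that of ZDHHC17, at 66.6 ± 1.38 CPM in TD and 34.8 ± 0.587 CPM in A549. ZDHHC2, which palmitoylates CD9 and CD151, followed with a log2 change of 0.63 (adjusted p = 0.00638, edgeR), and ABHD17C led the lower genes with -0.60 (adjusted p = 0.00542, edgeR).

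**Figure D5:**
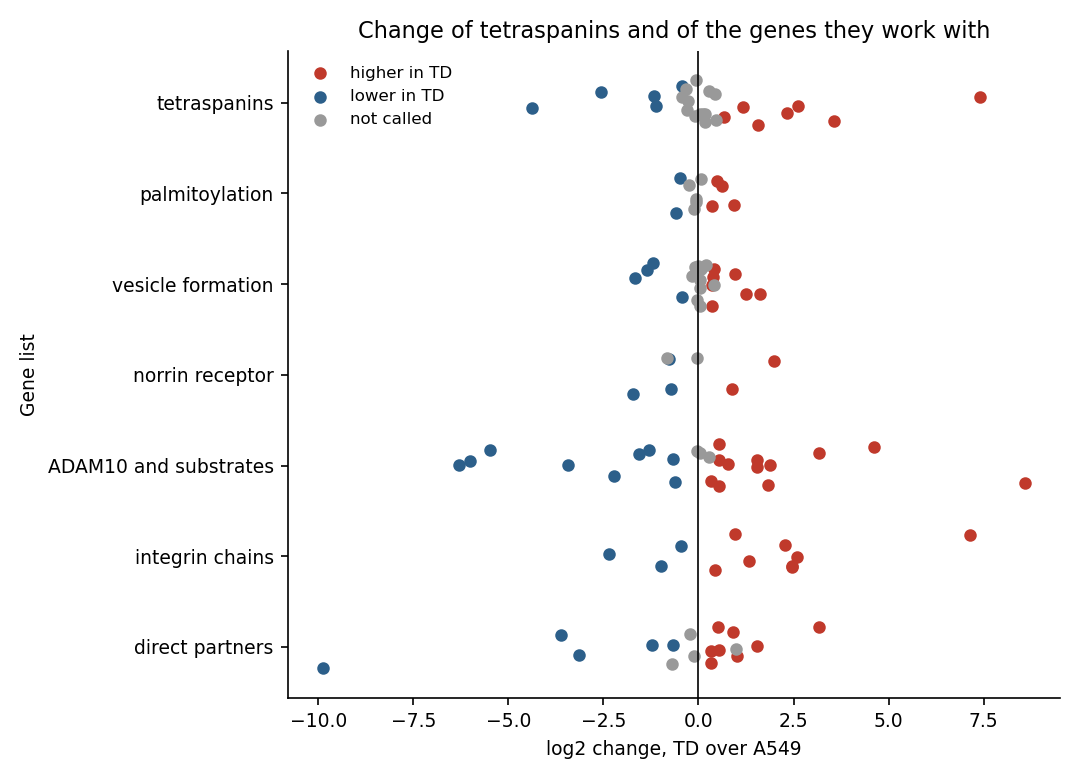
Log2 change, TD over A549, of the tested tetraspanins and of 6 lists of related genes, 1 point per gene, red for higher, blue for lower and grey for not called. All 11 integrin chains are coloured and lie mostly to the right, with a median of 1.32, while the tetraspanins lie on both sides, with a median of 0.12. The lists were chosen with earlier results of these data known.

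Genes with a tetraspanin fold but another naming were looked at separately. UPK1B, a uroplakin of bladder epithelium, was close to the detection limit in TD, at 0.108 ± 0.0555 CPM in TD and 195 ± 6.36 CPM in A549, or 8 counts over the TD libraries against 11239 counts over the A549 libraries. Its log2 change of -10.69 (SE 0.19, adjusted p = 3.08e-05, edgeR) was wider than that of any member by the rule. With 8 counts over the TD libraries, this SE may understate the counting error. ROM1, a retinal relative, averaged 2.17 ± 0.147 CPM in TD and 1.15 ± 0.00259 CPM in A549 (adjusted p = 0.0330, edgeR), and without A549 replicate 1 or 2 the adjusted p was 0.164 or 0.156. UPK1A and PRPH2 had too few counts to be tested.

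Some tetraspanin genes lie side by side in the genome, in 3 pairs. In edgeR's test over all genes, with TMM scaling and the default filter, no pair had both genes called. On chromosome 11, CD82 was higher while TSPAN18, its direct coding neighbour, did not pass the test. CD151 and TSPAN4 on the same chromosome are separated by 1 coding gene, POLR2L. CD151 was higher, TSPAN4 had a log2 difference of -0.44 that missed the threshold, and POLR2L missed it too, with 161 and 210.5 CPM in TD against 258 and 235 CPM in A549. Under library totals, DESeq2's test, no filter, the 5 CPM filter or protein-coding genes alone, CD151 was called higher and TSPAN4 lower. CD81 lies next to TSPAN32, which had 1 count over all 4 libraries and was not tested, so both could not have been called. CD151 shares 6.5% of its exon length with POLR2L, TSPAN31 shares 25.4% with CDK4 on the opposite strand, CD63 9.0% with AC009779.2, CD82 6.9% with AC010768.1 and TSPAN7 21.7% with AF241726.2. The TSPAN7 overlap is on the same strand and the others are on opposite strands. The strand setting of the counting is not given in the sources used here, so the split of reads within the opposite-strand pairs is uncertain. For CD82 and TSPAN7 the overlapping gene had 0 counts in every library. Reads that fitted more than 1 gene, 2.34% to 2.56% of all reads tallied in genes or set aside, were left out as ambiguous. The zeros therefore do not show that the shared bases had no reads, in the same-strand TSPAN7 overlap as well. CDK4 was higher in TD, with 152 and 166 CPM in TD against 125 and 130 CPM in A549 (adjusted p = 0.0329, edgeR).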

How the data were processed

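The authors deposited raw counts per gene, 1 table for each of the 4 libraries. Libraries were made with a TruSeq stranded mRNA kit and read as 75-base pairs on a NextSeq 500, per the labels' protocols. FastQC 0.11.8, STAR 2.7.1a, HTSeq 0.11.2 and the human build GRCh37 (hg19) are named in the submitters' processing notes; for annotation release and strand setting, nothing is given in the sources used here. Reads outside annotated genes, 6.12% to 7.79% of all reads HTSeq tallied in genes or summary rows, stayed out of library sizes and tests. So did alignments that were not unique, 8.08% to 9.22%. No libraries held identical values.

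Symbols, gene types and exon lengths came from GENCODE 29, which paired 52338 of 57820 identifiers with a symbol; it is on GRCh38, so it gave no coordinates. Promoter sequences are from RefSeq on GRCh38.p14. Protein sequences were not analysed here.

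TD was compared with A549 by the quasi-likelihood test of edgeR 4.0.16 (R 4.3.3) with TMM scaling, the default filter (minimum count 10) and Benjamini-Hochberg adjustment over all tested genes, called below 0.05. The script was tested on simulated data. SE is the log2 change over the square root of its F statistic, and 95% intervals are unadjusted. Where 1 group had few counts, this SE and interval can be narrower than counting error alone. CPM and CPM per kb of exon were computed from the counts. Members and lists were chosen with earlier results of these data known, and the role groups after their values were seen. All members could be named; those called with at least a 2-fold change are given library by library, as are most others. Of each companion list, up to 3 called genes in each direction by size of change, and partners of a described tetraspanin, could be named. CX3CL1 had too few counts for a fold. Alternatives were library totals, DESeq2 1.42.0 size factors and test, no filter, a filter of 5 CPM in 2 libraries, protein-coding genes alone, a 1.5-fold threshold, a replicate block, each library left out and, added after seeing the data, the longest coding transcript as gene length.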

Additional observations from a re-analysis of the deposited data

How the results depend on the processing

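TSPAN2, TSPAN5, CD82, TSPAN7, TSPAN9, TSPAN8, TSPAN13, CD9 and TSPAN33 kept direction and call under every alternative that tested them; TSPAN8 and TSPAN10 were not tested under the 5 CPM filter. CD151, TSPAN10 and TSPAN15 lost their calls without A549 replicate 1 or 2, with the replicate block (adjusted p = 0.0610, 0.0610 and 0.0961, edgeR) and with the 1.5-fold threshold. The cause was not tested. With 2 libraries a group, depth limits TSPAN1, TSPAN11 and the 4 untested members most.

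Leaving out each library in turn gave 5 to 10 higher and 4 to 8 lower tetraspanins, and 2114 to 5329 higher and 2236 to 6140 lower genes over all. For the lists it gave 4 to 9 higher direct partners, 3 to 8 higher vesicle genes, 2 to 4 higher and 1 to 2 lower palmitoylation genes, 1 to 4 lower norrin genes, and 0 to 1 higher and 1 to 2 lower tetraspanin-fold genes. Some uncalled members changed sign: CD63 ran between -0.16 and 0.059, CD81 between -0.093 and 0.18, TSPAN11 between -0.29 and 1.74, TSPAN12 between -0.26 and 0.077 and TSPAN31 between -0.0073 and 0.18. With library totals CD81 was at -0.035 and the median of all tested genes at -0.12, against -0.04 with TMM. A group left with 1 library was assumed to vary like the other group. The common coefficient of variation between libraries of a group was 20.1% with all 4 libraries. It was 34.1% without A549 replicate 1 and 34.0% without A549 replicate 2, where the TD libraries alone set it. Without TD replicate 1 or 2, where the A549 libraries set it, it was 7.08%. Over all tested genes, the TD libraries thus varied more than the A549 libraries. With all 4 libraries, the common coefficient was 14.7% under the 5 CPM filter and 7.54% for protein-coding genes alone. The values over all tested genes therefore need not hold for the members, which are all protein-coding.

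The 1.5-fold threshold left 1741 higher and 2109 lower genes over all, 4 higher and 3 lower direct partners, 7 higher ADAM10 genes, 3 higher vesicle genes, 1 higher and 0 lower palmitoylation genes and 1 lower norrin gene. ROM1 was the 1 higher tetraspanin-fold gene, and that count was 0 with the 1.5-fold threshold, library totals, DESeq2's test, no filter, the 5 CPM filter or the replicate block. The 5 CPM filter left 5 lower ADAM10 genes.

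DESeq2's test called 10 higher and 7 lower tetraspanins, library totals 8 and 7, no filter 7 and 7, and protein-coding genes alone 9 and 7. The calls over all genes moved as well. They were 4304 higher and 3928 lower with DESeq2's test and 3446 and 4362 with library totals. No filter gave 4088 and 4452, and protein-coding genes alone 4205 and 4233. The replicate block called 5 higher and 4 lower tetraspanins, and 2964 higher and 2847 lower genes over all. The deviations of TD replicate 1 and A549 replicate 1 from their group means had r = -0.0965 across 17785 genes, which are not independent. With 2 libraries a group, that value cannot tell whether same-numbered libraries were handled together. The labels used here do not state it, so whether the block is a pairing is unknown.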
